A study of Sus scrofa with 6 samples.

Results

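XCR1, CADM1 and CLEC9A are 3 surface molecules by which type 1 conventional dendritic cells (cDC1) are recognised, and their transcripts were followed here across 6 arrays of pig blood dendritic cells. Members were all probes that the scanner files name XCR1, CADM1 or CLEC9A, which gave 4 probes with 5 spots each, 20 spots per array, for 3 of the 23 genes that the files name by symbol. The study sorted candidate subsets, marked with a star, from the blood of control pigs about 2 years old, and each subset was hybridized on 2 one-colour arrays. Candidate *cDC1 (labelled XCR1+ DC) were large cells without immunoglobulin, CD4 or CD14 that carried MHC class II and CADM1 and little CD172. Candidate *cDC2 (labelled XCR1- DC) came, by the labels, through the same gate without CADM1 and with high or intermediate CD172. The study's own name *cDC2 covers only those of high CD172, so cells of intermediate CD172 may be in the values given here as *cDC2, which the labels leave unsettled. Candidate *pDC were CD4+ cells with intermediate CD172 and without CD3 or CD14, stained with another panel that held no antibody to CADM1. XCR1 protein was not stained in any sort, so the XCR1 of the labels names the subset and not the gate, while the CADM1 protein was itself the gate between *cDC1 and *cDC2. No animal was treated or genetically modified.

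The series' design text gives 1 pig for the CADM1+ cells and 3 pigs for each of the other subsets, and RNA of distinct animals was mixed where little was obtained. The scanner file names carry a code that the sources used here do not explain, which differs between the arrays of each subset and recurs on *cDC1 replicate 1, *cDC2 replicate 1 and *pDC replicate 2. The codes of *cDC1 replicate 2 and *cDC2 replicate 2 are not the same but hold digits in common. Which arrays share an animal is therefore not settled, and the p-values measure the spread between these arrays, which may be technical. Between 54.3% and 64.1% of the gene spots of an array were well above background by the scanner software's call, and no gene spot was saturated. The number of arrays limits the precision. Of the 6 arrays, spread over 4 slides and 3 scan days, 4 (both *pDC, *cDC1 replicate 1 and *cDC2 replicate 1) were scanned on the same day. Among the genes named by symbol, TCF4, the transcription factor that maintains pDC identity, was highest on both *pDC arrays, and CD14 and CSF1R, both monocyte genes, were highest on both *cDC2 arrays. None of the 4 cDC2 genes listed is named in the files, so those genes could not check the identity of that subset. SIRPA, counted here with the monocyte genes, also marks cDC2 among dendritic cells, and its protein was part of the gate. Compared with *cDC1, *cDC2 had 28.5-fold more CD14, 117-fold more CSF1R and 5.46-fold less FLT3. The name *cDC2 therefore stands here for the sort alone, and no comparison with it is read as cDC1 against established cDC2. No B cell, T cell, NK cell, red cell or platelet gene of the lists used is named in the files.

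XCR1 is the receptor for the chemokine XCL1, which activated NK cells and CD8 T cells release, and it is among the most restricted markers of cDC1 in mammals. CADM1 is an immunoglobulin superfamily adhesion molecule that binds copies of itself and CRTAM on activated lymphocytes, and it is also found on epithelia, neurons and mast cells. CLEC9A is a C-type lectin-like receptor that recognises actin filaments exposed on dead cells and helps cDC1 to present antigens from those cells to CD8 T cells. In the RefSeq annotation of the pig assembly Sscrofa11.1, all 3 symbols are present, but the identifiers within the probe names were not matched to it, so the probes' genes rest on the names in the scanner files alone. XCR1 lies there between CXCR6 and CCR1 in a cluster of chemokine receptor genes, and CLEC9A lies between CLEC1A and CLEC1B in a cluster of lectin genes. CADM1 follows NXPE2. The probe files name no genome build, so no coordinates are given.

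Each probe is a 60-base oligonucleotide, and the sequences are shown because the results turn on what they can pair with and because 2 of them recur on the array. Capitals mark bases that another probe of the array also holds as an unbroken run.

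XCR1: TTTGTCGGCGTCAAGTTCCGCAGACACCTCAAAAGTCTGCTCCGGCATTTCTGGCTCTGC

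CADM1 brighter probe: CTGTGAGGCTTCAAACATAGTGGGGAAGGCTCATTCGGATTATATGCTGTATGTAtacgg

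SS_S1C_ENSG182985, shifted copy: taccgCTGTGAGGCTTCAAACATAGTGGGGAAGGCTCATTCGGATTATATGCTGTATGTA

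CADM1 dimmer probe: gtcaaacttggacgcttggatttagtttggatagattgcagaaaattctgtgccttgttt

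CLEC9A: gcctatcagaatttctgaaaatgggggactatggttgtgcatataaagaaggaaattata

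All 60 bases of the XCR1 probe are printed under 2 further probe names that carry no symbol, A_72_P444112 and SS_S1C_ENSG173578, with 1 spot each, so 7 spots per array hold that sequence. The brighter CADM1 probe (SS_Pos_ENSSSCG15062) shares 55 bases on the same strand with SS_S1C_ENSG182985, a probe without a symbol that is shifted by a few bases. Neither the dimmer CADM1 probe (SS_Pos_ENSSSCG15063), with at most 14 bases, nor the CLEC9A probe (SS_Pos_ENSSSCG639), with at most 15, shared a longer run with any other probe on either strand. Between the 4 member probes the longest shared run was 7 bases, so their signals do not rest on common sequence. XCR1 had the highest GC content of the 4, at 55.0%, followed by 45.0% and 38.3% for the CADM1 probes and 35.0% for CLEC9A, where the median over all probes was 41.7% and the 10th and 90th percentiles were 35.0% and 45.0%.

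By the call of well above background, XCR1 was measured on the *cDC1 arrays alone among the 6 examined. By a more lenient call, of a signal significantly above background, it was above it on 5 of 6. All 10 spot readings on *cDC1 arrays were well above background, with processed signals from 373.4 to 443.7, against 0 of 10 readings on *cDC2 arrays, from 1.65 to 4.62, and 1 of 10 on *pDC arrays, from 2.47 to 8.80. Raw spot means, before any background subtraction, ran from 419.3 to 494.3 on the *cDC1 arrays and from 33.1 to 53.9 on the other 4, where the local background was 19.5 to 27.0. No spot reading of *cDC1 came near any reading of the other subsets, whereas *pDC and *cDC2 readings overlapped. For each probe, the level is the mean over its spots of log2 processed signal minus the 75th percentile of the array, which puts 0 at a brightness that 75% of that array's gene spots do not reach. The level of XCR1 was 0.47 and 0.54 on the *cDC1 arrays, -5.68 and -5.49 on the *pDC arrays, and -6.58 and -6.78 on the *cDC2 arrays. In the same order, the mean was 0.50 ± 0.054 (SD, n = 2 arrays), -5.58 ± 0.13 (SD, n = 2) and -6.68 ± 0.14 (SD, n = 2).

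**Figure D1:**
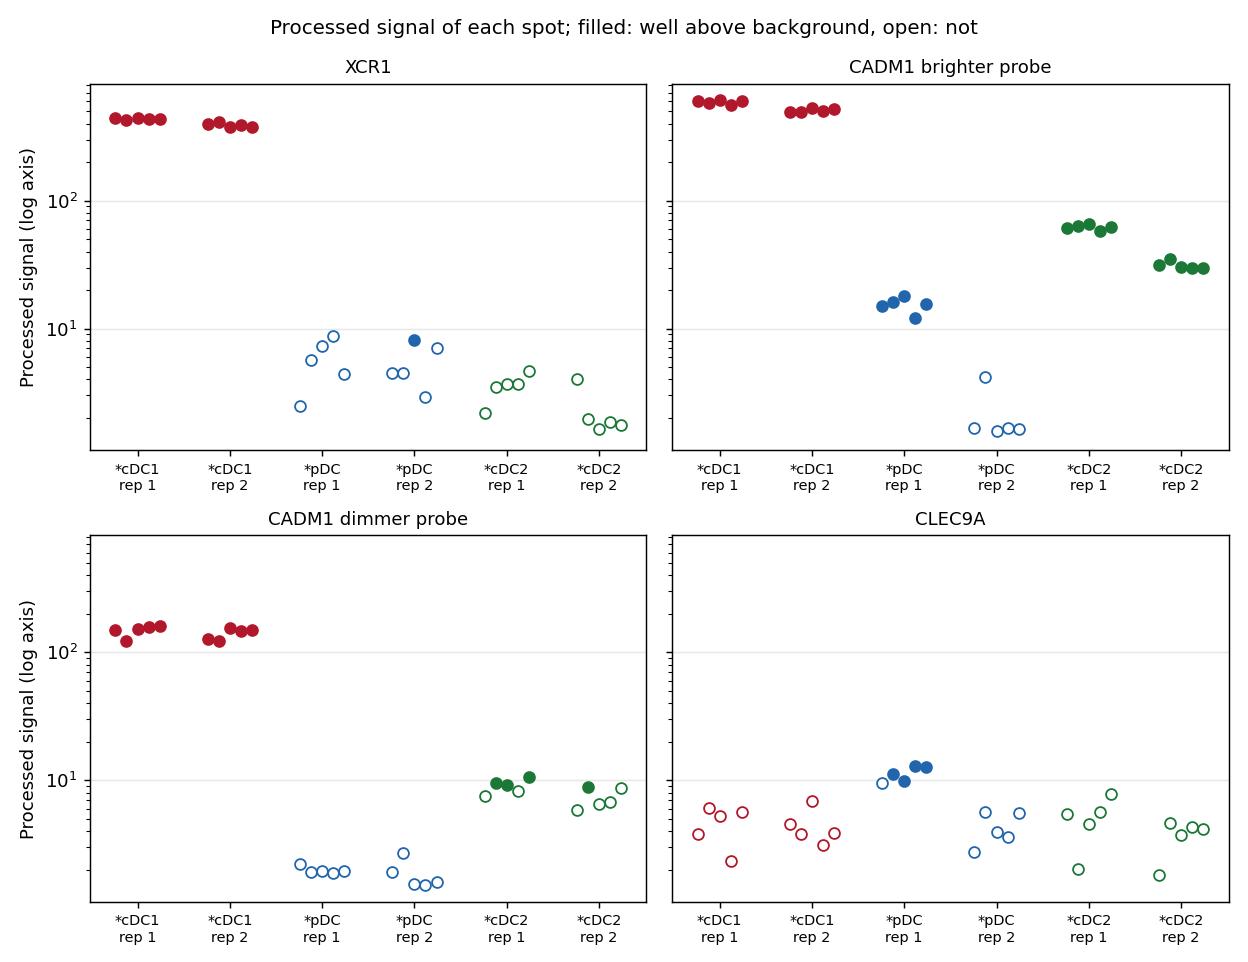
Processed signal (background-corrected brightness, arbitrary units, log axis) of every spot of the 4 member probes on the 6 arrays, with red for *cDC1, blue for *pDC and green for *cDC2. Filled points were well above background. All 10 XCR1 readings on *cDC1 arrays lie at 373.4 or higher while the other 20 lie at 8.80 or lower, and the CLEC9A readings are low on every array, with 4 filled points on *pDC replicate 1.

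Because the XCR1 probe was not well above background on the *pDC and *cDC2 arrays, the differences are given only as a lower bound by a rule. The bound sets the *cDC1 mean against, for each dim array, the higher of the lowest level called well above background there and the level of the probe itself. That lowest level is the least over all probes called, and a probe above it can go uncalled. A probe named DMC1 did so on *pDC replicate 1, at -4.64 where the lowest was -4.96. The bounds in fold are therefore not strict limits. On this basis *cDC1 exceeded *pDC in XCR1 by at least 44.6-fold (adjusted p = 0.000201 by limma with Benjamini-Hochberg adjustment over the 26371 probes tested) and exceeded *cDC2 by at least 50.0-fold (adjusted p = 0.00035). XCR1 was among the probes tested only through its signal on the *cDC1 arrays, so these p-values carry that selection. With no filter on dim probes the limma adjusted p was 0.00163 and 0.00254. Calls of that direction were made for 15.2% of the probes tested against *pDC and for 7.79% against *cDC2. The fitted log2 differences were 6.09 (standard error 0.23, 95% interval 5.52 to 6.65) and 7.19 (standard error 0.23, interval 6.63 to 7.75). They depend on values near background. With normexp background correction they were 2.60 and 2.83, and on the authors' deposited log2 values 4.47 and 4.87, all still called. The bounds in fold for XCR1 and CADM1 therefore hold only for the processed signals scaled as described, since both settings gave smaller differences than those bounds. Among arrays scanned on the same day, *cDC1 replicate 1 exceeded the *pDC arrays by 6.14 and 5.95 and *cDC2 replicate 1 by 7.05 on the log2 scale. These sizes too are against values not well above background, so only their direction is read. Fewer cells with the transcript and less transcript per cell cannot be told apart in RNA from sorted populations.

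Being well above background on both *cDC1 arrays and on no other array was found for 193 of the 41901 probes used, or 0.461%, and XCR1 was 1 of them, as were both further probes of its sequence. The other 3 member probes were not.

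Between *pDC and *cDC2, the fit gave XCR1 a limma adjusted p of 0.0143 with the higher mean in *pDC, but neither subset was well above background on any array and no fold is given. In that comparison 15.8% of the probes tested were called higher in *pDC and 16.9% higher in *cDC2. The 2 single-spot probes of the XCR1 sequence were not called there, at adjusted p = 0.0941 and 0.304 by limma, and on the deposited values the probe named XCR1 was not called either, at adjusted p = 0.166. The call was also lost without *cDC2 replicate 1 (0.0705) or *cDC2 replicate 2 (0.121).

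The further probes of the XCR1 sequence gave the same pattern from other places on the array. On the *cDC1 arrays A_72_P444112 stood at 0.44 and 0.58 and SS_S1C_ENSG173578 at 0.47 and 0.51, so the 3 probe names differed by at most a few hundredths of a log2 unit from the named probe. The SD over the 5 named spots was 0.017 and 0.056 on these arrays. On the other 4 arrays, where the sequence was near background, the SD over spots was 0.40 to 0.72. The bounds for the copies were at least 44.8-fold and 44.3-fold against *pDC, and at least 50.2-fold and 49.6-fold against *cDC2. With all 7 spots averaged, a choice made after seeing the data, the level was 0.46 and 0.55 in *cDC1, -5.63 on both *pDC arrays, and -6.52 and -6.71 in *cDC2. With 1 spot reading of those subsets well above background, all 4 averages lie below the lowest level called well above background on their arrays and have no order.

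**Figure D2:**
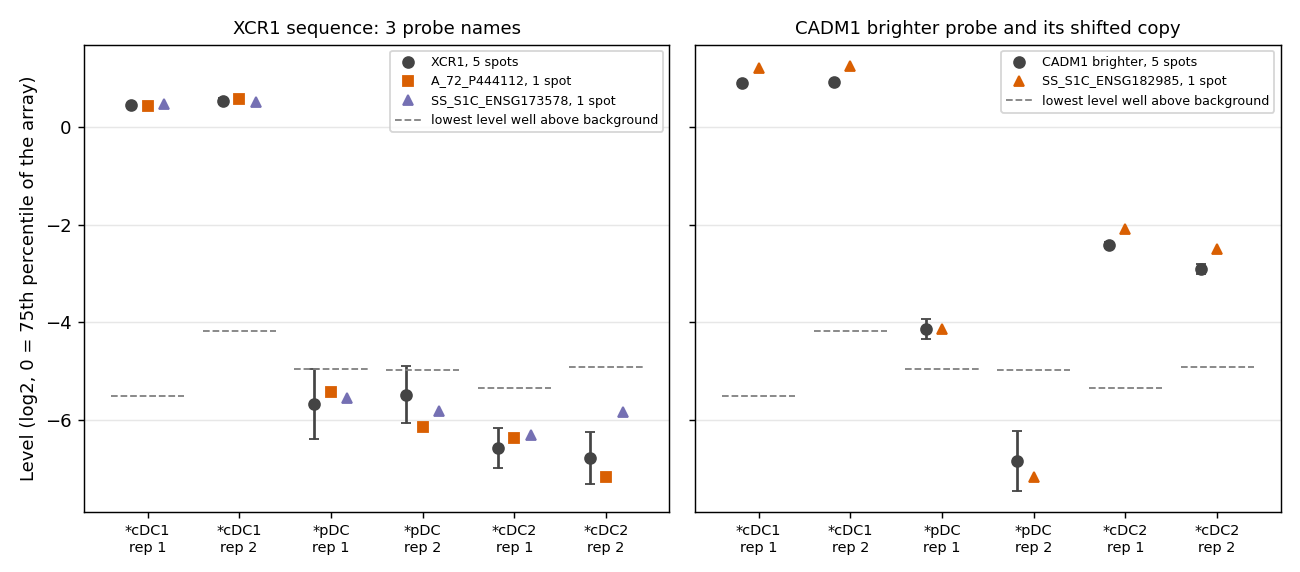
Level (log2 processed signal minus the 75th percentile of the array) on each array of the probes that share the XCR1 sequence (left) and of the brighter CADM1 probe with its shifted copy (right). Bars give the SD over the 5 spots of a member probe, and dashed lines the lowest level called well above background on that array. The XCR1 copies coincide on the *cDC1 arrays and lie below the dashed line on the other 4, and both CADM1 probes cross it on *pDC replicate 1 and not on *pDC replicate 2.

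CADM1 was highest in *cDC1 on both of its probes, and unlike XCR1 it was measured outside *cDC1, most clearly in *cDC2 by the brighter probe. The brighter probe was well above background at all 10 readings on *cDC1 arrays, from 492.5 to 608.7, and at all 10 on *cDC2 arrays, from 29.9 to 65.2, although *cDC2 had been gated as CADM1-negative. On the *pDC arrays it was well above background at all 5 spots of replicate 1, from 12.1 to 17.8, and at 0 of 5 spots of replicate 2, from 1.58 to 4.21. The levels were 0.91 and 0.93 in *cDC1, -2.41 and -2.91 in *cDC2, and -4.14 and -6.85 in *pDC. The 3 subsets did not overlap, and since *pDC replicate 2 was not well above background its distance from replicate 1 has no measured size.

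By the brighter probe, CADM1 was 11.9-fold higher in *cDC1 than in *cDC2 (log2 difference 3.58, standard error 0.81, 95% interval 1.60 to 5.55, limma adjusted p = 0.0324). Of the 21626 probes well above background on all 4 arrays of these subsets, 135 had a larger difference in this direction, so CADM1 ranked 136. The interval is wide because the 3 subsets share 1 estimate of the spread. The values of the *pDC arrays, 1 of them not well above background, entered that estimate far apart. In a fit of the *cDC1 and *cDC2 arrays alone the adjusted p was 0.00257 by limma. The call was lost when any 1 of the *cDC1 or *cDC2 arrays was left out (adjusted p = 0.104 to 0.192), with no filter on dim probes (0.0794), with the other background call in the filter (0.0593) and with the scan day as a block (0.388), while the log2 difference stayed between 3.32 and 3.82 in these fits. On the scan day with 4 arrays the difference between *cDC1 replicate 1 and *cDC2 replicate 1 was 3.32.

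On the brighter CADM1 probe *cDC1 exceeded *pDC by at least 44.7-fold (limma adjusted p = 0.00288), a bound because 1 of 2 *pDC arrays was well above background and the other was set to its lowest such level. The fitted log2 difference of 6.41 (standard error 0.81, 95% interval 4.44 to 8.38) depends on the *pDC array used. Its size against replicate 2, not well above background, is not a measured one. Without *pDC replicate 2 the log2 difference was 5.06 and without *pDC replicate 1 it was 7.76, and on the same scan day *cDC1 replicate 1 stood above the *pDC arrays by 5.05 and 7.75. With normexp background correction the difference was 2.99 and on the deposited values 4.94. *cDC2 exceeded *pDC by at least 3.74-fold on the same basis (limma adjusted p = 0.0408), and this call was lost in 10 of the 20 alternatives, with a fitted log2 difference of *pDC minus *cDC2 from -4.19 without *pDC replicate 1 to -0.52 with normexp correction.

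The dimmer CADM1 probe was also highest in *cDC1, and it did not separate *cDC2 from *pDC beyond background. It was well above background at all 10 readings on *cDC1 arrays, from 122.5 to 161.5, at 4 of 10 on *cDC2 arrays, with medians of 9.23 and 6.73, and at 0 of 10 on *pDC arrays, from 1.52 to 2.73. After 1 spot with an outlier flag on a *pDC array was left out, the level over the remaining 4 spots was -1.10 and -0.90 in *cDC1, -5.13 and -4.94 in *cDC2, and -7.13 and -6.99 in *pDC. Above *pDC, *cDC1 stood by at least 15.8-fold (limma adjusted p = 0.000201, or 0.00163 with no filter on dim probes). They also exceeded *cDC2 by at least 16.4-fold (log2 difference 4.04, standard error 0.23, 95% interval 3.47 to 4.61, limma adjusted p = 0.000463, or 0.00309 with no filter), where 1 of 2 *cDC2 arrays was well above background. This probe was tested only through its signal on the *cDC1 arrays, so the p-values with the filter carry that selection. Both calls held in all 20 alternatives each, although normexp correction lowered the fitted log2 differences to 1.61 and 1.58 and the deposited values to 3.91 and 2.88. For *pDC against *cDC2 the limma adjusted p was 0.00162 with the lower mean in *pDC, and the call held in 18 of the 20 alternatives. It was lost with normexp correction (0.907) and with the scan day as a block (0.0718). No fold is given since *cDC2 was above background on 1 array alone.

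The shifted copy of the brighter CADM1 probe was, like it, well above background on *pDC replicate 1 and not on replicate 2. It stood at 1.21 and 1.26 in *cDC1, -2.09 and -2.50 in *cDC2, and -4.14 and -7.17 in *pDC. Its log2 difference between *cDC1 and *cDC2 was 3.53 (standard error 0.90, limma adjusted p = 0.0468). The mean of both CADM1 probes, a choice made after seeing the data, is among the 20 alternatives. It is given no levels, since the dimmer probe was not well above background on either *pDC array.

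Across the tests, 3 of the 4 member probes passed the filter, which asks for a signal well above background on each array of some subset, and these 3 passed it in *cDC1. All 3 were called higher in *cDC1 against *pDC and against *cDC2, as were 3.79% of the probes tested in both comparisons. Their lower *cDC1 array also lay above the highest of the other 4 arrays, which held for 16.8% of the probes tested. Since XCR1 and the dimmer CADM1 probe passed the filter through *cDC1 alone, these counts only describe them, and their p-values with the filter carry the same selection.

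**Figure D3:**
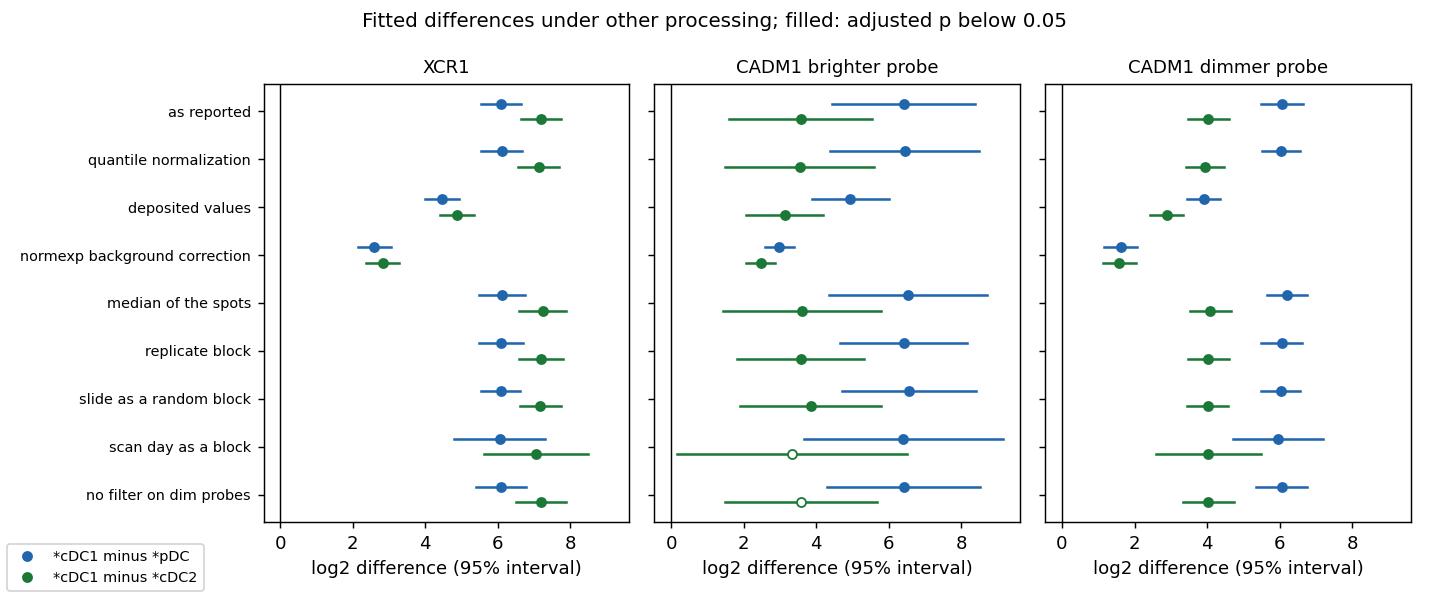
Fitted log2 difference of *cDC1 minus *pDC (blue) and *cDC1 minus *cDC2 (green) for the 3 member probes tested, with 95% intervals, under the processing reported and 8 alternatives. Filled points had a limma adjusted p below 0.05. Every difference is above 0, normexp correction gives the smallest, from 1.58 to 2.99, and the open points are the brighter CADM1 probe against *cDC2 without the filter and with the scan day as a block.

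CLEC9A was not measured above background in *cDC1. None of the 10 readings on *cDC1 arrays was well above background, with processed signals from 2.34 to 6.83, and none of the 10 on *cDC2 arrays was, from 1.81 to 7.80. Replicate 1 of *pDC was the exception, with 4 of 5 spots well above background and a lowest and median signal of 9.56 and 11.2, while replicate 2 had 0 of 5, from 2.75 to 5.66. The levels were -6.17 and -5.96 in *cDC1, -6.14 and -6.05 in *cDC2, and -4.58 and -5.78 in *pDC. By level, *cDC1 and *cDC2 overlapped, and *pDC replicate 1 alone stood apart. On that array the lowest level of a probe called well above background was -4.96, so CLEC9A was close to the limit there. No probe was called below -4.18 on *cDC1 replicate 2, so a level of -4.58 could not have been called on it. Before background subtraction, raw CLEC9A spot means were highest on *cDC1 replicate 2, at 66.2 to 75.9 (local background 25.0 to 29.0). They were 53.4 to 59.3 on *pDC replicate 1 (21.0 to 23.0). The probe did not pass the filter, so it has no test under the settings used throughout, and no fold is given in any comparison. With no filter it was not called by limma between *cDC1 and *pDC (adjusted p = 0.289) or between *cDC1 and *cDC2 (0.982), nor when the filter used the more lenient background call (0.216 and 0.981). Without *pDC replicate 2 it passed through the remaining *pDC array alone, and the adjusted p of 0.013 against *cDC1 and 0.0105 against *cDC2 follow from that selection and are not read as a difference. Being well above background on *pDC replicate 1 and on no other array was found for 428 of the 41901 probes, or 1.02%. With the more lenient call of a signal significantly above background, CLEC9A was above it on 5 of 6 arrays, all but *cDC1 replicate 2. XCR1 was also above it on 5 of 6, so that call did not separate the subsets. For CLEC9A in *cDC1 the data give no measured level. The lowest level called well above background on those arrays was -5.52 and -4.18, and CLEC9A lay below it on both. Whether the CLEC9A probe pairs well with the pig transcript was not tested.

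The brighter CADM1 probe, its shifted copy and CLEC9A were all above background on *pDC replicate 1 and not on replicate 2. That split was seen for 1482 of 41901 probes, or 3.54%. Other genes moved with it in part. Across probes, the absolute log2 gap between the *pDC arrays had a median of 0.468 and a 95th percentile of 1.67. Among the genes given next, only CD14, with a gap of 1.92, exceeded that percentile. CD14 was higher on *pDC replicate 1, at -0.73, than on replicate 2, at -2.66, and CSF1R was at -2.95 and -4.48. In the opposite direction BATF3 was at -1.11 and 0.41 and SIRPA at -3.21 and -2.35. TCF4 was at 7.21 and 6.96. XCR1 and the dimmer CADM1 probe were not well above background on either *pDC array and say nothing of this split. Of the 10 monocyte genes listed, 3 are named in the files (CD14, CSF1R and SIRPA). All 3 were well above background on both *pDC arrays, a call that most gene spots of every array passed. CD14 and CSF1R were also well above background on both *cDC1 arrays. Neither was called between *cDC1 and *pDC (limma adjusted p = 0.591 and 0.543). SIRPA was well above background on neither *cDC1 array and was called higher in *pDC (limma adjusted p = 0.002). The *pDC gate left out CD14+ cells and took cells with intermediate CD172, which SIRPA encodes, so the gate itself bears on SIRPA there. The part of such cells in the *pDC values of CADM1 and CLEC9A was not tested.

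The cDC1 programme around these molecules was represented by few named probes. Of 26 genes listed for it, 5 are named by symbol, which are BATF3, ID2, FLT3, IL12A and IL12B, and none of the 5 ligands and partners of the members (XCL1, XCL2, CRTAM, SYK and NECTIN3) is. Of the 3 tested, 3 were called higher in *cDC1 than in *cDC2, as were 7.79% of all probes tested (median log2 difference 2.81, where the median over all probes was 0.047). Against *pDC, 2 of the 3 were called higher in *cDC1, as were 15.2% of all probes tested (median 4.33, against -0.031). BATF3, a transcription factor required for cDC1 in the mouse, stood at 7.81 and 7.77 in *cDC1, 4.23 and 3.68 in *cDC2, and -1.11 and 0.41 in *pDC. ID2, an inhibitor of E proteins needed for the same lineage, stood at 6.33 and 5.97, 3.35 and 3.33, and 1.63 and 2.01 in that order. Both therefore had *cDC2 between *cDC1 and *pDC, as the brighter CADM1 probe did, whereas XCR1 was near background in *cDC2 and *pDC alike. FLT3, the receptor for the cytokine that drives dendritic cell growth, was called higher in *cDC1 than in *cDC2 and had a log2 difference of 0.066 from *pDC (95% interval -0.53 to 0.66). IL12A and IL12B, the subunits of interleukin 12, stayed below that call on all 6 arrays and were not tested.

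**Figure D4:**
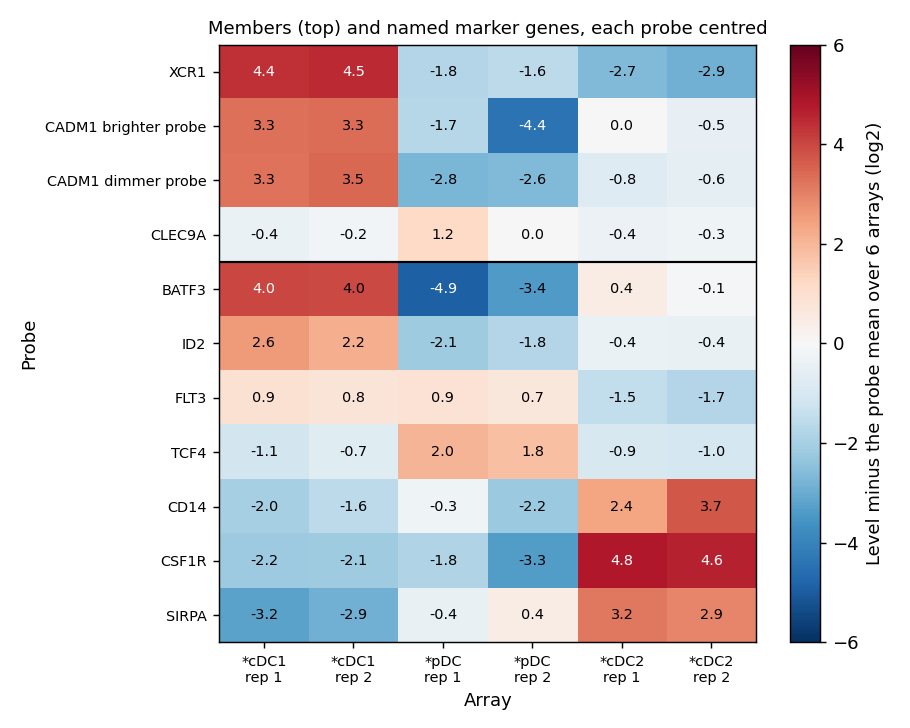
Level of each probe on each array minus the mean of that probe over the 6 arrays (log2), for the 4 member probes above the line and 7 genes named by symbol below it. XCR1 and both CADM1 probes are red on the *cDC1 arrays, as are BATF3 and ID2, and CLEC9A stays between -0.4 and 1.2. *pDC replicate 2, not well above background for the brighter CADM1 probe, has the lowest value there, at -4.4.

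Where XCR1 and CADM1 were called higher in *cDC1 than in *cDC2, the monocyte genes named by symbol went the other way. CD14, the lipopolysaccharide coreceptor, CSF1R, the receptor for macrophage colony-stimulating factor, and SIRPA, which encodes CD172, were all 3 called higher in *cDC2 than in *cDC1, a direction called for 8.26% of the probes tested. In *cDC2, CD14 was 28.5-fold and CSF1R 117-fold above *cDC1 (limma adjusted p = 0.00757 and 0.000737). The CD172 protein encoded by SIRPA was also part of the gate. On neither *cDC1 array was SIRPA well above background, at a mean of -5.84 ± 0.23 (SD, n = 2), and *cDC2 exceeded *cDC1 by at least 34.5-fold (limma adjusted p = 0.00046). TCF4, the only one of the 10 pDC genes listed that the files name, was called higher in *pDC than in *cDC1, as were 13.6% of the probes tested.

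The genes named by symbol whose levels ran most like a member's over the 6 arrays were ranked by Pearson's r, as a description only, since the arrays form 3 groups of 2 and r mostly orders the group means. With each gene taken by its brightest probe, for XCR1 they were ID2 (r = 0.88), DMC1 (r = 0.86) and CADM1 (r = 0.79). By its dimmer probe CADM1 was at r = 0.89 with XCR1, above ID2. DMC1, a meiotic recombinase, was well above background on 1 array alone. With Spearman's correlation the list for XCR1 changed to DMC1, CYP26B1 and IL12B (0.77, 0.77 and 0.71), the latter 2 not well above background on any array. XCR1 itself was not well above background on the *pDC and *cDC2 arrays, so its ranks there are not taken as an order and that list is not read. On the deposited values Pearson's list held ID2, CADM1 and DMC1 (0.92, 0.88 and 0.81). For the brighter CADM1 probe the 3 genes were ID2 (r = 0.93), BATF3 (r = 0.91) and XCR1 (r = 0.79), and for the dimmer one they were ID2, BATF3 and XCR1 as well (r = 0.995, 0.97 and 0.89). ID2 and BATF3 kept the first 2 ranks for both CADM1 probes under all 3 measures. The brighter CADM1 probe was well above background on 5 arrays and the dimmer on 3, so the limit on Spearman ranks applies to them too. The CADM1 probes correlated with each other at r = 0.94 over the 6 arrays. CLEC9A had no such list, since no subset had it well above background on both its arrays. Over the 6 arrays its r was -0.28 with XCR1, which rests mostly on values near background.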

How the data were processed

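RNA of sorted pig blood *cDC1, *cDC2 and *pDC was amplified, labelled with Cy3 and hybridized by the authors on custom porcine Agilent arrays, with 2 arrays per subset. The authors deposited for each array the linear spot intensities of Feature Extraction, which subtracts background and replaces low values by a small surrogate, with 0 or 1 calls per spot. They also deposited normalized log2 values in 1 file, made by a scaling not given in the sources used here, of which 6 columns served as an alternative and 5 columns were not used. Of the deposited log2 columns, each correlated best with the scanner values of its own array (r = 0.984 to 0.989), and their medians were 5.35 to 5.36.

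From the processed signals, log2 was taken and the 75th percentile of the 42018 gene spots of each array subtracted. The 1417 control spots and 19 gene spots that the software marked as outliers on some array were dropped, spots of a probe were averaged, and a probe counted as well above background where most of its spots were. limma 3.58.1 (R 4.3.3) was fitted over all 6 arrays with 1 coefficient per subset, on the 26371 of 41901 probes that were well above background on each array of some subset, with Benjamini-Hochberg adjustment at 0.05. It was tested on simulated data. The 3 differences were *cDC1 minus *pDC, *cDC1 minus *cDC2 and *pDC minus *cDC2. Summaries used Python 3.11.15. Alternatives were normexp background (offset 50), quantile normalization, deposited values, the median of spots, outlier flags kept, no filter, the software's other background call, a trended prior, only the arrays compared, slide, scan day and replicate number as blocks, and leaving out each array.

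Genes beside the members are those on fixed lists that the files name by symbol, each by its brightest probe. The members and lists were chosen with earlier results of these data known. Replicate numbers recur in each subset but no label ties them to an animal. The same-numbered *cDC1 and *cDC2 arrays have file-name codes that are the same (replicate 1) or hold digits in common (replicate 2). A code in the scanner file names, unexplained in the sources used here, recurs on 1 array of each subset and entered as a block in an alternative chosen after seeing the data. Probe identifiers without a symbol were not turned into gene names.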

Additional observations from a re-analysis of the deposited data

How the results depend on the processing

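Every alternative kept the direction of XCR1 and both CADM1 probes in the comparisons of *cDC1, and all calls but that of the brighter CADM1 probe against *cDC2, whose log2 difference was 3.58 without the filter or with the other background call and 3.32 with the scan day as a block, and 3.33 to 3.82 with 1 array left out. It was not called in these fits, except when the array left out was a *pDC array. XCR1 ranged from 2.60 to 6.18 against *pDC and from 2.83 to 7.29 against *cDC2, lowest with normexp correction. Counts over all probes moved more. Against 7598 (*cDC1 and *pDC), 4233 (*cDC1 and *cDC2) and 8617 (*pDC and *cDC2), they were 1982, 594 and 2856 with the scan day as a block, which compares only the arrays of 1 day. Without the filter, 4373 and 2337 were called in the comparisons of *cDC1. With 1 array left out they ran from 3965 to 8930, 1333 to 5862 and 4095 to 10414. For these moves the cause was not tested.

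The replicate block changed none of the members' calls. XCR1 differed by 6.09 and 7.19 with the replicate block and the brighter CADM1 probe by 6.41 and 3.58, and 7542, 4098 and 8489 probes were called. Same-numbered arrays deviated together at r = 0.043 to 0.27, so the numbers were not taken as pairs. With the recurring code of the file names as a block, 6914, 3823 and 8085 probes were called, deviations of the arrays so matched correlated at -0.089 to 0.27, and among the members' calls only that of the brighter CADM1 probe between *pDC and *cDC2 was lost (adjusted p = 0.0523). Members with a signal near background have no order below it, and CLEC9A differences are not interpreted. Between *cDC1 and *cDC2 that of CLEC9A was 0.025 and turned to -0.005 with normexp correction, -0.143 with the median of the spots, -0.163 on the deposited values and -0.327 with quantile normalization.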
